A study of Mus musculus with 6 samples.

Results

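The DNA methylation and TET genes described here are *Dnmt1*, *Dnmt3a*, *Dnmt3b*, *Uhrf1*, *Tet1*, *Tet2*, *Tet3*, *Idh1* and *Idh2*. They were chosen by name, and all 9 were among the 12101 genes listed for RNA-seq of megakaryocyte-erythroid progenitors (MEPs), the bone marrow cells that form the red cell and platelet lineages. Of the listed genes, 12088 had at least 1 CPM (reads of a gene scaled to 1000000 per library, after normalization) in at least 3 libraries and were tested, all 9 among them. The mice were adult *Nanog*-tg animals of the CD-1 strain. They carried the doxycycline (dox)-responsive activator rtTA at the *Rosa26* locus, which is active in nearly every cell type, and a *Nanog* cDNA under a dox-responsive promoter at the *Col1a1* locus. In 3 libraries *Nanog* had been induced by dox in the drinking water for 5 days (dox-treated), and 3 libraries came from mice of the same genotype that had received no dox (untreated), so that both groups carried both transgenes and differed in the drug as well as in *Nanog*. MEPs were sorted from bone marrow as lineage-negative, cKit+, Sca1- cells through a CD34 and CD16/32 gate, and ages were not given. Nothing stated that the replicates of a group came from separate animals, so p-values measured only the spread between these libraries, which may be technical.

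Methylation of cytosine at CpG sites is written de novo by DNMT3A and DNMT3B and is copied to the new strand after replication by DNMT1, which UHRF1 brings to hemimethylated DNA. The TET enzymes TET1, TET2 and TET3 oxidise methylcytosine, which leads to its loss, and need 2-oxoglutarate, the product of the isocitrate dehydrogenases IDH1 in the cytosol and IDH2 in mitochondria. *DNMT3A*, *TET2*, *IDH1* and *IDH2* are among the genes most often mutated in human clonal hematopoiesis and myeloid leukemia, and loss of *Dnmt3a* or *Tet2* in mice expands hematopoietic stem cells.

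The *Uhrf1* promoter is shown because *Uhrf1* had the lowest p-value of the 9 genes and because it is one of the members with an E2F-type word before its start site. E2F factors drive the genes of DNA synthesis. RefSeq promoter windows of GRCm38.p6, from 250 bases before to 50 bases after each transcript start, numbered 15 for the 9 genes and 32851 for all genes. E2F-type words (TTTCCCGC, TTTGGCGC, TTTCGCGC or TTTGCCGC on either strand) were found in 2 of the 15 windows, 1 each of *Dnmt1* and *Uhrf1*, against 2.26% of all windows. GATA words (AGATAA or TGATAA on either strand) were in 0 of the 15 windows, against 18.6% of all windows. The GC box GGGCGG was in 13 of 15, against 35.7%, and overlapped none of the E2F-type words, of which the *Dnmt1* window held 2 and the *Uhrf1* window 1. In that *Dnmt1* window, 166 of the 250 bases before the RefSeq start lie in an annotated exon. The windows held between 2 and 57 CpG sites, with a median of 23 against 7 for all windows. The windows of all genes were not matched for CpG content, and the part of base composition in these shares was not tested. *Uhrf1* has 2 of these windows, and the one at its first start, near the start of the gene, held 12 CpG sites and no E2F-type word. The 250 bases before its other start, which lies inside the annotated gene, are at chr17:56443486-56443735 of NCBIM37 on the forward strand. They hold 30 CpG sites and touch no annotated exon. The capitals mark the E2F-type word, whose first base is at position -185 relative to the start site. A word of this kind is a match of letters and not a measured binding site.
Uhrf1 promoter: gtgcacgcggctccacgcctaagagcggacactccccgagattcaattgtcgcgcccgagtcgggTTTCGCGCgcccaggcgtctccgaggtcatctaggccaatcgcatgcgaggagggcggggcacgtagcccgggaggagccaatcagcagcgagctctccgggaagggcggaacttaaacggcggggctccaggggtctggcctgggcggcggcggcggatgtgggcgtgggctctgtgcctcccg

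Libraries held from 11264803 to 16153600 reads on the listed genes, and the 9 genes had between 149 and 9059 reads in a library, so none was near the 3 reads that a count of 0 allows. *Nanog* separated the groups as labelled, with 17062, 19609 and 15959 reads in the dox-treated and 9, 13 and 1 reads in the untreated libraries (log2 fold change 11.37, limma, adjusted p = 0.0035). Markers of other cells moved with the groups. Of 8 granulocyte-monocyte markers 7 fell, and their summed level was between 496.2 and 726.7 CPM with dox and between 2353 and 5435 CPM without. Of 6 megakaryocyte markers 2 rose and 1 fell, with sums of 384.5, 375.3 and 114.4 CPM in dox-treated replicates 1, 2 and 3 and from 79.3 to 112.5 CPM without dox. Most of that sum with dox was *Itga2b*, the platelet integrin chain CD41, at 319.0, 314.1 and 66.9 CPM with dox and at 37.5, 24.1 and 39.2 CPM without, which was not among the markers called (limma, adjusted p = 0.069). Of the 8 erythroid markers, all present, 1 fell, *Ermap* (log2 fold change -0.77, limma, adjusted p = 0.024). The mean was lower with dox for 6 of them and higher for 2, *Hbb-b1* and *Alas2* (log2 fold changes 1.21 and 0.75, limma, adjusted p = 0.14 for each). The erythroid sums were 1340, 1340 and 2001 CPM with dox and from 2223 to 2597 CPM without. Of 5 mast cell markers tested 2 rose, *Cpa3*, a mast cell protease, at 4.88 to 10.01 CPM without dox and 46.1 to 60.9 CPM with it (limma, adjusted p = 0.0096), and *Ms4a2*, an IgE receptor chain, at 1.70 to 3.91 CPM without and 13.1 to 29.6 CPM with it (limma, adjusted p = 0.022). The other mast cell markers were not called, and *Gata2* had a higher and *Kit* and *Mcpt8* a lower mean with dox. Their log2 fold changes were 1.46, -0.39 and -0.93 (limma, adjusted p = 0.070, 0.19 and 0.20). The mast cell sum, most of it *Kit* and *Gata2*, was from 518.2 to 686.5 CPM with dox and from 387.2 to 608.4 CPM without. Of 5 lymphoid markers tested 0 passed, with sums of 98.1, 28.3 and 45.6 CPM in dox-treated replicates 1, 2 and 3 and from 31.1 to 54.1 CPM without dox. Dox-treated replicate 3 stood apart from replicates 1 and 2 in the megakaryocyte and erythroid sums, and replicate 1 in the lymphoid sum. These counts changed when 1 library was left out. The 7 granulocyte-monocyte calls became 1 without untreated replicate 3, 2 without dox-treated replicate 1 and 3 without dox-treated replicate 2 or untreated replicate 1. The 2 megakaryocyte markers that rose became 0 without dox-treated replicate 1 or 2 or untreated replicate 1 or 2 and 1 without untreated replicate 3, the megakaryocyte marker that fell lost its call without dox-treated replicate 2 or untreated replicate 1 or 3, and the mast cell calls became 1 without any library but dox-treated replicate 3. The erythroid call was lost without any library but dox-treated replicate 3, without which 5 of 8 were lower. In such bulk samples fewer cells of a type and less RNA per cell cannot be told apart.

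The question asked of the 9 genes was whether *Nanog* induction went with a different level of the enzymes that write, keep and remove DNA methylation. None of the 9 passed an adjusted p under 0.05 in limma over all 12088 genes, in either direction. Over all tested genes 555 were called higher, which is 4.59%, and 384 lower, which is 3.18%. At an unadjusted p under 0.05 there was 1 of 9, *Uhrf1*, against 29.2% of all genes. The mean was higher with dox for 4 genes and lower for 5, with a median log2 fold change of -0.13, against -0.03 for all genes. This median was -0.025 with quantile normalization, against -0.05 for all genes, and -0.020 with scaling by total reads, against 0.08 for all genes. With 1 library left out it was -0.078 without dox-treated replicate 2, where 2 genes were higher and 7 lower, -0.080 without untreated replicate 1, -0.085 without dox-treated replicate 3 and -0.21 without untreated replicate 2. The libraries of the groups did not overlap for 2 of the 9, *Dnmt1* and *Uhrf1*, both lower with dox, a share to be read against 18.2% of all genes that were lower without overlap. The number higher without overlap was 0, against 17.7% of all genes.

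**Figure D1:**
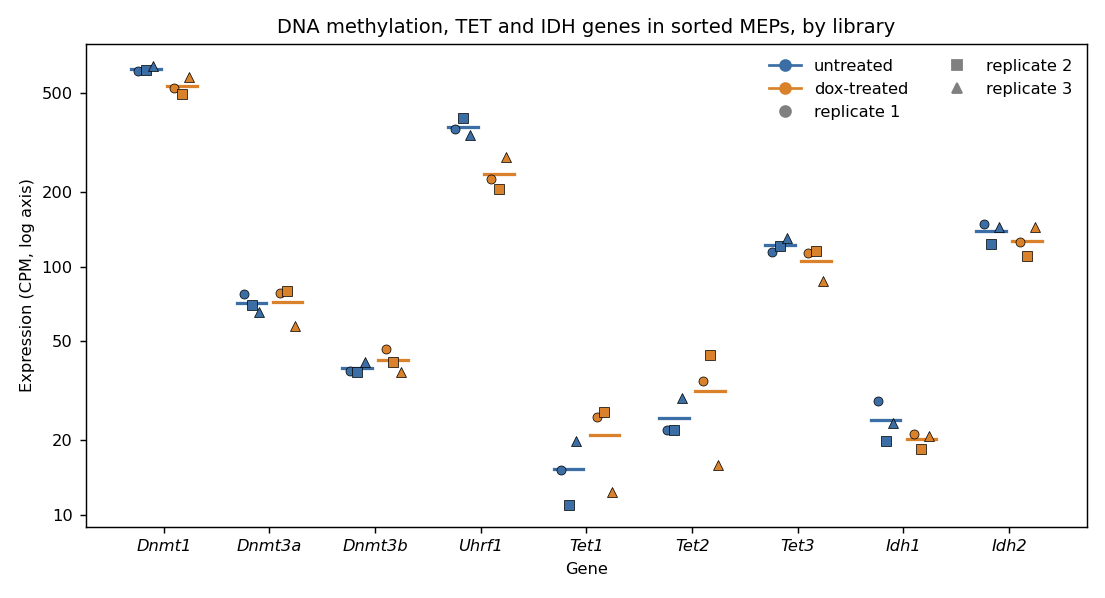
Expression of the 9 genes in CPM on a log axis, with 1 point per library (circle, square and triangle for replicates 1, 2 and 3) and a bar at the mean of each group, untreated in blue and dox-treated in orange. The dox-treated libraries lie below all untreated libraries for *Uhrf1* and *Dnmt1*, and overlap them for the other 7 genes, among which replicate 3 is the lowest dox-treated library for *Tet1*, *Tet2*, *Tet3*, *Dnmt3a* and *Dnmt3b*.

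In untreated MEPs the maintenance genes had the highest levels per length of the set. *Dnmt1* (ENSMUSG00000004099), which copies methylation at replication, lies on the reverse strand at chr9:20711650-20757317 of NCBIM37. It was at 523.3, 495.1 and 581.3 CPM in dox-treated replicates 1, 2 and 3 and at 614.3, 617.0 and 641.1 CPM in untreated replicates 1, 2 and 3. All dox-treated libraries were thus below all untreated ones, although the highest of the former was close to the lowest of the latter. The means were 533.2 ± 44.0 CPM with dox and 624.1 ± 14.8 CPM without (SD, n = 3 each). The log2 fold change of *Dnmt1* was -0.23, with a standard error of 0.11 and a 95% interval from -0.49 to 0.03, and it did not pass the test (limma, adjusted p = 0.21). The value was -0.055 with quantile normalization (limma, adjusted p = 0.72) and -0.12 with scaling by total reads (limma, adjusted p = 0.40).

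*Uhrf1*, the partner that recognises hemimethylated DNA (ENSMUSG00000001228), lies on the forward strand at chr17:56442744-56462909. It was at 225.8, 205.4 and 275.0 CPM with dox and at 358.2, 396.2 and 338.4 CPM without. Each dox-treated library was below each untreated one, and the gap between the groups, from 275.0 to 338.4 CPM, was wider than that of *Dnmt1* relative to its level. The means were 235.4 ± 35.8 CPM with dox and 364.3 ± 29.4 CPM without (SD, n = 3 each). The log2 fold change of *Uhrf1* was -0.64 (standard error 0.15, 95% interval -0.99 to -0.28), a fold of 0.643 (0.502 to 0.823). Its adjusted p was 0.054 in limma, just outside the threshold, and ranged from 0.0049 to 0.18 over 16 alternative settings, 7 of which passed the threshold. Without dox-treated replicate 3 it was -0.76 (limma, adjusted p = 0.016), and *Uhrf1* was then the 1 member of 9 called lower, against 14% of all genes. None was called higher in that fit, against 14.9% of all genes.

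The ratio of *Uhrf1* to *Dnmt1* within a library does not depend on the factor by which the whole library was scaled, though quantile normalization can change it. Its log2 was -1.19 ± 0.10 with dox and -0.78 ± 0.14 without (SD, n = 3 each), a difference of -0.41. The dox-treated libraries ranged from -1.27 to -1.08 and the untreated from -0.92 to -0.64, with no overlap. The exact two-sided permutation test gave p = 0.1, the smallest that 3 libraries against 3 allow, and 0.5 after Benjamini-Hochberg adjustment over the 5 ratios of this kind that were computed.

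Both genes are known to be expressed most in dividing cells, so 29 proliferation genes (replication, S phase and mitosis) were set beside them. All 29 had a lower mean with dox, with a median log2 fold change of -0.34, and the same 29 were lower when libraries were scaled by total reads or by quantiles. Of the 29, 1 passed the test, *Cdt1*, which licenses replication origins (log2 fold change -0.55, limma, adjusted p = 0.047), and its adjusted p was between 0.079 and 0.17 when any library but dox-treated replicate 3 was left out. With quantile normalization or scaling by total reads its adjusted p was 0.064 or 0.065, and 0 of the 29 passed. The summed proliferation level was 6540, 6387 and 9618 CPM in dox-treated replicates 1, 2 and 3 and 9741, 10199 and 9028 CPM without dox. Dox-treated replicate 3 lay within the untreated range and replicates 1 and 2 below it. Without dox-treated replicate 3, 23 of the 29 were called lower and the median was -0.55. Relative to the mean log2 level of these genes in the same library, *Uhrf1* was at 0.50, 0.38 and 0.29 with dox and at 0.63, 0.66 and 0.64 without, a difference of -0.26 that kept the groups apart (exact permutation test, two-sided, p = 0.1). This relative measure was chosen after values had been seen. *Dnmt1* on the same scale was at 1.71, 1.64 and 1.37 with dox and at 1.41, 1.30 and 1.56 without, with overlapping groups and a difference of 0.15 (exact permutation test, two-sided, p = 0.3). The part of the share of dividing cells in the values of *Uhrf1* and *Dnmt1* was not tested.

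The genes whose values over the 6 libraries lay nearest to those of *Uhrf1* were 2810004N23Rik, *Dna2*, a nuclease and helicase of DNA replication, and *Xpo4*, a nuclear transport receptor. Their root mean square distances, on log2 values centred on each gene's mean, were 0.023, 0.031 and 0.040. Nearest to *Dnmt1* were *Serf2*, 2310037I24Rik and *Ucp2*, at distances of 0.027, 0.031 and 0.032.

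De novo methyltransferase genes did not separate the groups. *Dnmt3a* (ENSMUSG00000020661) lies on the forward strand at chr12:3806007-3914443. It was at 78.4, 79.5 and 57.6 CPM with dox and at 77.4, 69.9 and 66.0 CPM without, so that dox-treated replicate 3 was below and replicates 1 and 2 above every untreated library. The means were 71.8 ± 12.3 and 71.1 ± 5.84 CPM (SD, n = 3 each), with a log2 fold change of 0.00 and a 95% interval from -0.39 to 0.40 (limma, adjusted p = 0.99). An antisense transcript, *Gm10485*, shares 133 exonic bases with *Dnmt3a*, and since the use of strand in counting was not given, reads from these bases cannot be told apart.

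*Dnmt3b* (ENSMUSG00000027478), at chr2:153475186-153513466 on the forward strand, was at 46.6, 41.4 and 37.8 CPM with dox and at 37.9, 37.8 and 41.3 CPM without. The groups overlapped, and the means were 41.9 ± 4.43 and 39.0 ± 1.97 CPM (SD, n = 3 each). The interval of its log2 fold change of 0.10 ran from -0.19 to 0.39 (limma, adjusted p = 0.60). That value was 0.020 without dox-treated replicate 1, 0.17 without dox-treated replicate 3 and 0.21 with scaling by total reads. The log2 ratio of *Dnmt3b* to *Dnmt3a* differed by 0.10 between the groups (exact permutation test, two-sided, p = 0.5), and by 0.013 to 0.19 with 1 library left out.

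*Tet1* and *Tet2* had the largest standard errors of the set, and in all 3 TET genes replicate 3 was the lowest dox-treated library. *Tet1* (ENSMUSG00000047146), at chr10:62267318-62361866 on the reverse strand, was at 24.7, 25.9 and 12.4 CPM with dox and at 15.2, 11.0 and 19.8 CPM without. Dox-treated replicates 1 and 2 were above all untreated libraries, and replicate 3 was within their range. The means were 21.0 ± 7.46 and 15.4 ± 4.41 CPM (SD, n = 3 each). The log2 fold change of *Tet1* was 0.42 with a 95% interval from -0.45 to 1.29 (limma, adjusted p = 0.46), and 0.76 without dox-treated replicate 3 (limma, adjusted p = 0.086). It was 0.27 without dox-treated replicate 1, 0.23 without dox-treated replicate 2 and 0.20 without untreated replicate 2 (limma, adjusted p = 0.75, 0.78 and 0.80).

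*Tet2* (ENSMUSG00000040943), at chr3:133126643-133207354 on the reverse strand, is the family member most often mutated in blood cancers. It was at 34.5, 44.1 and 15.9 CPM with dox and at 22.0, 22.0 and 29.6 CPM without, again with dox-treated replicates 1 and 2 above and replicate 3 below every untreated library. The means were 31.5 ± 14.4 and 24.5 ± 4.36 CPM (SD, n = 3 each). Its log2 fold change of 0.25 had a standard error of 0.39, the largest of the 9 against a median of 0.16 over all genes, and an interval from -0.70 to 1.21 (limma, adjusted p = 0.69). Leaving out dox-treated replicate 3 gave 0.68 (limma, adjusted p = 0.056) and leaving out dox-treated replicate 2 gave -0.051 (limma, adjusted p = 0.95), so these libraries decided the size and the direction of the *Tet2* value.

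*Tet3* (ENSMUSG00000034832), at chr6:83312367-83391672 on the reverse strand, acts in the oocyte and zygote as well as in blood. It was at 113.8, 115.7 and 87.6 CPM with dox and at 114.1, 120.8 and 130.7 CPM without, so that dox-treated replicate 2 was above the lowest untreated library. The means were 105.7 ± 15.7 and 121.9 ± 8.34 CPM (SD, n = 3 each), and the log2 fold change of -0.22 had an interval from -0.57 to 0.14 (limma, adjusted p = 0.36). Without dox-treated replicate 3 it was -0.085, with quantile normalization -0.11 and with scaling by total reads -0.10. Nearest to *Tet3* over the 6 libraries were *Zfp868*, *Prkcsh* and *Atp6ap1*, at distances of 0.026, 0.033 and 0.036.

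**Figure D2:**
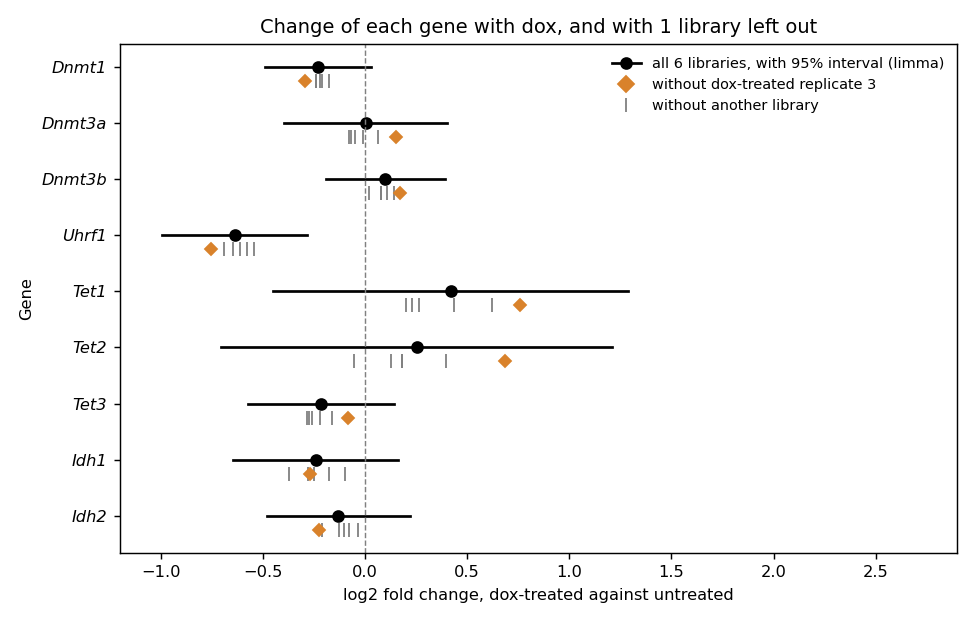
Log2 fold change of each of the 9 genes, dox-treated against untreated. Black points and lines give the value and 95% interval from all 6 libraries, orange diamonds the value without dox-treated replicate 3 and grey ticks the values without each other library. The interval of *Uhrf1*, from -0.99 to -0.28, is the only 1 of the 9 that does not cross 0, and the values of *Tet1* and *Tet2* without dox-treated replicate 3, 0.76 and 0.68, are the highest of their values with 1 library left out.

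Some marker genes that are not TET genes differed between the dox-treated libraries in the same way. *Itga2b*, with the values given above, was one of them. *Hlf*, a factor of stem and early progenitor cells, was at 28.9, 34.2 and 11.6 CPM with dox and at 7.70, 4.51 and 9.37 CPM without. Both were higher in dox-treated replicates 1 and 2 than in replicate 3, as *Tet1* and *Tet2* were, and both were chosen after their values were seen. *Mllt3*, also in the stem cell list, went the other way, with 117.7, 120.3 and 165.9 CPM with dox and 94.6, 75.9 and 77.7 CPM without. *Mecom*, the third marker tested, was at 8.10, 10.8 and 4.17 CPM with dox and at 3.50, 1.18 and 1.18 CPM without, so that 2 of the 3 were lowest among dox-treated libraries in replicate 3. In that list 0 of 3 markers tested passed the threshold, and its summed level was 154.7, 165.3 and 181.7 CPM in dox-treated replicates 1, 2 and 3 and from 81.6 to 105.8 CPM without, most of it *Mllt3*. The sort kept Sca1- cells, which leaves out most stem cells, and the part of other cells in the values of *Tet1* and *Tet2* was not tested.

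Levels of different genes can be compared only per length, and for this reads per kilobase of the longest annotated transcript and per 1000000 reads (RPKM) were used. In untreated MEPs *Dnmt1* was highest at 118.6 ± 2.80 RPKM, followed by *Uhrf1* at 101.6 ± 8.19 and *Idh2* at 77.4 ± 7.38 RPKM (SD, n = 3). *Tet3* at 11.2 ± 0.765, *Idh1* at 10.5 ± 1.99, *Dnmt3b* at 9.03 ± 0.456 and *Dnmt3a* at 7.34 ± 0.603 RPKM came next, and *Tet2* at 2.67 ± 0.475 and *Tet1* at 1.07 ± 0.307 RPKM were lowest. The libraries of *Idh1* overlapped those of its neighbours *Tet3* and *Dnmt3b* in this order, and all other neighbours were separate. This untreated order was the same per length of merged exons. Among the 12054 tested genes with a length, *Dnmt1*, *Uhrf1* and *Idh2* were at percentiles 94.7, 93.7 and 91.4, and *Tet1* was at percentile 12.5. With dox *Uhrf1* was at 65.6 ± 9.98 RPKM and *Idh2* at 70.9 ± 9.37 RPKM (SD, n = 3), with overlapping libraries. Per length of merged exons these means were 55.3 and 49.1 RPKM, so their order with dox depends on the length used.

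The summed TET level per length overlapped between the groups, with 15.9, 17.2 and 10.6 RPKM in the dox-treated and 13.9, 14.2 and 16.6 RPKM in the untreated libraries (exact permutation test, two-sided, p = 0.9). *Tet3* made up most of it in every library. Its share was 65.5%, 61.6% and 75.5% with dox and 75.2%, 77.8% and 72.3% without (exact permutation test, two-sided, p = 0.3). The share of *Tet2* was 23.6%, 27.9% and 16.3% with dox and 17.2%, 16.8% and 19.4% without (exact permutation test, two-sided, p = 0.4). The share of *Tet1* was 10.8%, 10.5% and 8.15% with dox and 7.62%, 5.38% and 8.32% without (exact permutation test, two-sided, p = 0.2). The log2 ratio of *Tet3* to *Tet2* differed by -0.47 between the groups and that of *Tet1* to *Tet2* by 0.17, with exact permutation p-values of 0.4 and 0.5. With 1 library left out the former ranged from -0.77 to -0.23 and the latter from 0.018 to 0.28.

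**Figure D3:**
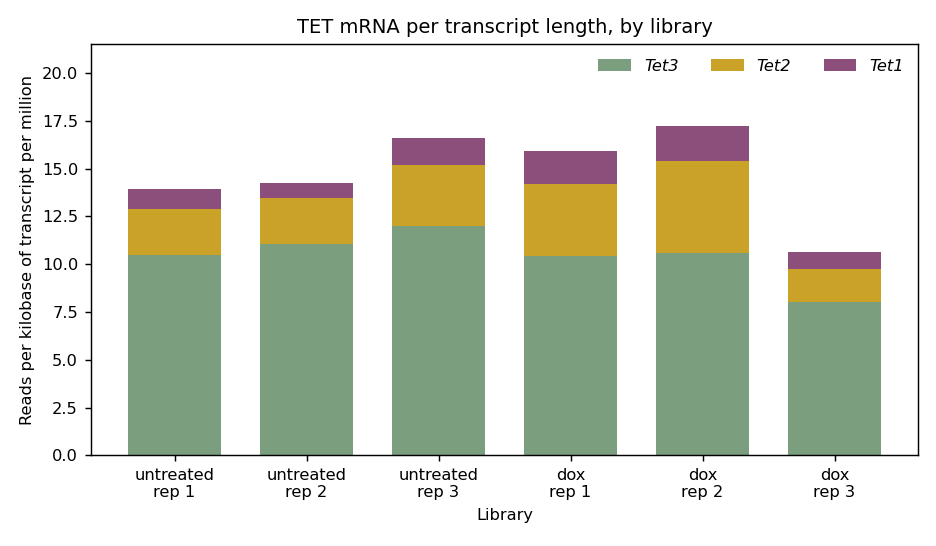
RPKM on the longest transcript for *Tet3*, *Tet2* and *Tet1*, stacked, with 1 bar per library and the axis starting at 0. *Tet3* forms from 61.6% to 77.8% of the sum in the 6 libraries, and the sum is lowest in dox-treated replicate 3, at 10.6.

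The isocitrate dehydrogenases, which supply the TET cosubstrate, did not pass the test. *Idh1* (ENSMUSG00000025950), at chr1:65205190-65233053 on the reverse strand, was at 21.2, 18.5 and 20.9 CPM with dox and at 28.9, 19.8 and 23.6 CPM without. The spread was carried by untreated replicate 1, the highest library, and the groups overlapped. The means were 20.2 ± 1.51 and 24.1 ± 4.58 CPM (SD, n = 3 each), with a log2 fold change of -0.24 (95% interval -0.64 to 0.16, limma, adjusted p = 0.37). Without untreated replicate 1 it was -0.10, without untreated replicate 2 -0.37 and with scaling by total reads -0.13.

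*Idh2* (ENSMUSG00000030541), at chr7:87239732-87260278 on the reverse strand, was at 125.9, 110.8 and 144.3 CPM with dox and at 148.2, 123.6 and 144.1 CPM without. The means were 127.0 ± 16.8 and 138.6 ± 13.2 CPM (SD, n = 3 each), and the interval of the log2 fold change of -0.13 ran from -0.48 to 0.22 (limma, adjusted p = 0.57). The value was -0.036 without dox-treated replicate 2, -0.080 without untreated replicate 1, -0.21 without untreated replicate 2, -0.23 without dox-treated replicate 3, -0.025 with quantile normalization and -0.020 with scaling by total reads. The log2 ratio of *Idh2* to *Idh1* in CPM was from 2.57 to 2.78 with dox and from 2.36 to 2.64 without, with a difference of 0.11 between the groups (exact permutation test, two-sided, p = 0.6) that ranged from 0.020 to 0.16 with 1 library left out.

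Around the 9 genes, 9 lists of related genes held 158 genes, of which 113 were tested. Of these 4 rose and 4 fell, 3.54% each, against 4.59% and 3.18% of all genes. Of 17 other writers and targeting factors 14 were tested, and *Dnmt3l*, *Zfp57* and *Dppa3* were not in the table. Their median log2 fold change was -0.18, and 2 rose and 0 fell. With scaling by total reads the median was -0.066, and the 4 genes with a higher and 10 with a lower mean became 7 and 7. Both that rose are known as partners of TET proteins and not as writers. *Ogt*, the O-GlcNAc transferase that binds TET2 and TET3, had 8577, 7574 and 8269 reads with dox and 4212, 3820 and 3776 without, and its log2 fold change was 0.86 (standard error 0.13, limma, adjusted p = 0.021). The libraries of *Ogt* were well apart, yet its adjusted p was between 0.063 and 0.084 when any library but dox-treated replicate 3 was left out. *Cxxc4*, a CpG-binding protein known to lower TET2 protein, had 21, 46 and 21 reads with dox and 1, 0 and 0 without (limma, adjusted p = 0.011). That is 88 against 1 read and a depth-scaled ratio of 77.2, with an exact counting interval from 13.5 to 3085, which covers counting error only. Its adjusted p was 0.051 without untreated replicate 3. Only its dox-treated libraries reached 1 CPM, at 1.55, 3.42 and 1.35 CPM. It was thus tested through the group where it was high, and the filter favoured a rise.

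In this list the groups did not overlap for 2 genes that were higher with dox, *Cxxc4* and *Ogt*, and for 5 that were lower. Over all genes these shares were 17.7% and 18.2%. The 5 were *Cdca7*, *Cdca7l*, *Usp7*, *Trim28* and *Cxxc1*, with log2 fold changes from -0.37 to -0.25. None of them was called (limma, adjusted p from 0.13 to 0.23). *Uhrf2*, the paralog of *Uhrf1*, had a log2 fold change of -0.06 (limma, adjusted p = 0.73). *Hells*, a chromatin remodeler needed for normal DNA methylation, had a log2 fold change of -0.42, with 1144, 1016 and 1736 reads with dox and 1616, 1733 and 1171 without (limma, adjusted p = 0.18). *Uhrf2* and *Hells* were chosen after their values were seen.

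All 10 genes in the list of methylcytosine readers and their relatives were tested, with a median log2 fold change of 0.24 (0.12 without dox-treated replicate 1), and 1 rose. It was *Zbtb4*, a zinc finger protein that binds methylated CpG, with 381, 324 and 235 reads with dox and 99, 100 and 94 without. Its log2 fold change was 1.46 (limma, adjusted p = 0.027), and its adjusted p was between 0.080 and 0.11 when any library but dox-treated replicate 3 was left out. Of 15 genes for removal of oxidised bases and base excision repair 14 were tested, with a median of -0.08 that became 0.026 when libraries were scaled by total reads, and 1 fell. Without dox-treated replicate 3 the median was -0.17, with 1 gene called higher and 4 lower, and without dox-treated replicate 1 it was -0.050. *Gadd45b*, a stress-induced gene linked to active demethylation, had 31, 25 and 22 reads with dox and 49, 42 and 49 without (log2 fold change -1.03, limma, adjusted p = 0.048). It too lost the call without any library but dox-treated replicate 3, with adjusted p between 0.081 and 0.15, and it passed in only 5 of 15 alternatives in all.

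**Figure D4:**
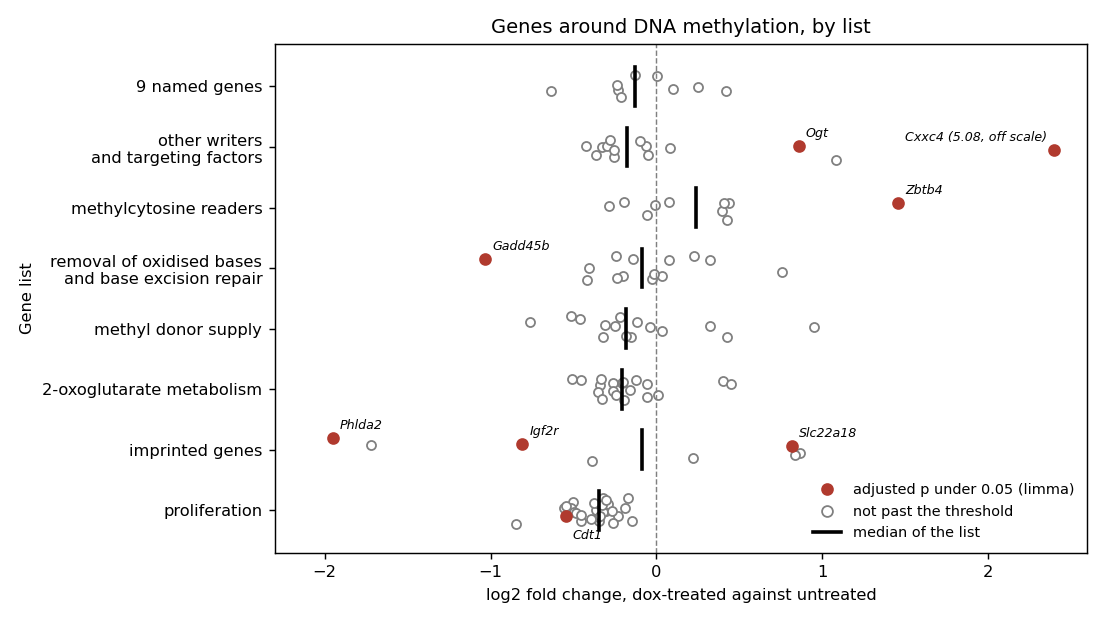
Log2 fold change, dox-treated against untreated, of each tested gene in the 9 named genes and 7 lists around them, with 1 point per gene, filled where the adjusted p was under 0.05, and a bar at the median of each list. The proliferation genes all lie below 0 with a median of -0.34, while the medians of the other lists run from -0.21 to 0.24, and *Cxxc4* is drawn at the edge because its fitted value, which depends on the 0.5 reads added, is off the scale.

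Supply of the methyl donor and of 2-oxoglutarate held no gene past the threshold in the fit of all 6 libraries. Without dox-treated replicate 3, 1 methyl donor gene was called higher and 3 lower, and 1 and 7 genes of 2-oxoglutarate metabolism. The shares of all genes in that fit were 14.9% and 14%. Of 15 methyl donor genes, all tested, the median was -0.18, and it was -0.042 with quantile normalization, -0.072 with total reads and -0.098 without untreated replicate 1. *Mtrr*, which restores methionine synthase to its active form, had a log2 fold change of -0.76 (limma, adjusted p = 0.055) and *Ahcyl2* had 0.43 (limma, adjusted p = 0.085). Over 16 alternatives *Mtrr* passed the threshold in 7 and *Ahcyl2* in 2. Of 19 genes of 2-oxoglutarate metabolism, all tested, 16 had a lower mean with dox and the median was -0.21. That count was 14 with scaling by total reads and 13 with quantiles, with medians of -0.098 and -0.093. *Glud1*, which makes 2-oxoglutarate from glutamate, had the lowest p of them, with a log2 fold change of 0.45 (limma, adjusted p = 0.067), and *Got1* and *Dlst* had -0.51 and -0.34 (limma, adjusted p = 0.15 and 0.19). Over 16 alternatives *Glud1* passed the threshold in 5, *Got1* in 0 and *Dlst* in 2. There *Got1* ranged from -0.68 to -0.32 and *Dlst* from -0.48 to -0.16.

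Genes whose expression is known to depend on DNA methylation were mostly outside the table. Of 21 imprinted genes 8 were tested, of which 1 rose and 2 fell. *Slc22a18* had 35, 34 and 31 reads with dox and 17, 15 and 17 without (log2 fold change 0.82, limma, adjusted p = 0.047). *Phlda2*, its neighbour in the same imprinted cluster, had 6, 17 and 15 reads with dox and 41, 46 and 35 without, a log2 fold change of -1.95 (limma, adjusted p = 0.036). *Igf2r*, the receptor that clears IGF2, fell as well, with a log2 fold change of -0.81 (limma, adjusted p = 0.045) and 676, 704 and 1133 reads with dox against 1323, 1395 and 1056 without. *Slc22a18* lost the call without any library but dox-treated replicate 3 (adjusted p from 0.090 to 0.16) and passed in only 4 of 15 alternatives in all. *Igf2r* too lost the call without any library but dox-treated replicate 3 (0.12 to 0.16). *Phlda2* lost it without dox-treated replicate 2 or any untreated replicate (0.054 to 0.11). It was at 0.44, 1.27 and 0.96 CPM with dox and 3.19, 3.40 and 3.18 CPM without, so it was tested through its untreated libraries. Reads were not assigned to a parental allele, so imprinting itself was not measured.

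Of 17 germline genes with promoters that are methylated in somatic cells 2 were tested and 0 passed the threshold. *Brdt*, a testis bromodomain protein, had 25, 26 and 19 reads with dox and 11, 3 and 6 without, a log2 fold change of 1.69 (limma, adjusted p = 0.082). Its untreated libraries were at 0.86, 0.22 and 0.55 CPM. It was thus tested through its dox-treated libraries only, and the filter favoured a higher value. *Ddx4*, a germ cell RNA helicase, had a log2 fold change of 0.66 (limma, adjusted p = 0.077). Over 16 alternatives the *Ddx4* value ranged from 0.33 to 0.80 and passed the threshold in 2. Of 16 other pluripotency genes 3 were tested, *Klf5*, *Klf2* and *Klf4*, with log2 fold changes of 1.61, -1.01 and -1.33, of which 0 passed the threshold (limma, adjusted p = 0.086, 0.13 and 0.16).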

How the data were processed

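RNA of sorted adult MEPs was sequenced on an Illumina GAIIx in 3 dox-treated and 3 untreated libraries, grouped by their labels. The authors removed adapters with Cutadapt, used RSEM for mapping to Ensembl transcripts of build NCBIM37 and for quantification, and limma for normalization. The deposited values are log2 CPM with 0.5 reads added, per normalized library size, which understates changes of genes with few reads. How genes with few reads were filtered and whether strand was used are not given in the sources used here. Reads were recovered from the steps of the values (largest deviation from a whole number 6.6e-09), and intervals on reads cover counting error only.

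Values were compared with limma 3.58.1 in R 4.3.3 (lmFit and eBayes, no block or weights) on the 12088 genes that reached 1 CPM in 3 or more libraries, adjusted by Benjamini-Hochberg over all of them, with a threshold of 0.05. The fit was tested on simulated data. Ratios had a two-sided exact permutation test. Tables and figures used matplotlib 3.10.9, numpy 2.4.6 and pandas 2.3.3 under Python 3.11.15. Symbols were matched for 12067 genes. Positions are those of GENCODE M1 on NCBIM37, and promoters those of RefSeq on GRCm38.p6, placed on NCBIM37 by exact match.

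The 9 genes and the lists were chosen with earlier results of these data known. Text names all 9 genes, *Nanog*, in each list the genes past the threshold (at most 5) or else the 3 with the smallest p, and the 3 genes of at least 5 CPM nearest to each of the 3 members with the smallest p. Of the genes this rule names, 1 is not reported here. The 16 alternatives changed the added reads, filter, variance model, weights, scaling and block, and left out each library in turn.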

Additional observations from a re-analysis of the deposited data

How the results depend on the processing

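Of 144 values for the 9 genes under 16 alternatives, 130 kept direction and side of the threshold. *Uhrf1* passed the threshold with a 5 CPM filter (-0.64), a mean-variance trend (-0.64), array quality weights (-0.69), voom precision weights (-0.64), quantile normalization (-0.48) and scaling by total reads (-0.53), and ranged from -0.76 to -0.54 with 1 library left out, passing without dox-treated replicate 3. *Dnmt1* passed with array quality weights (-0.29, adjusted p = 0.023) and was closest to 0 with quantile normalization (-0.055, adjusted p = 0.72). Members called lower were thus 2 with array quality weights, 1 with each of the other 5 settings and 0 to 1 with 1 library left out. Direction turned for *Dnmt3a*, -0.00068 with voom and -0.078 to 0.15 with 1 library left out, and for *Tet2*, -0.051 to 0.68. Over all genes 909 were higher and 747 lower with the trend, 2515 and 2601 with array quality weights, and 92 to 1801 and 36 to 1687 with 1 library left out, the largest without dox-treated replicate 3. In the lists 7 rose and 8 fell with the trend, 18 and 57 with array quality weights, 7 fell with voom and 2 with total reads, and 0 to 12 rose and 0 to 42 fell with 1 library left out. Total reads moved the median of all genes from -0.03 to 0.08 and the share of calls that were higher from 59.1% to 68.8%. With the replicate number as a block 53 genes were higher and 29 lower, 77 of them called without it, no member was called, and in the lists 1 rose and 0 fell, while the block with voom precision weights gave 575 and 351 over all genes and 5 and 4 in the lists. Same-numbered libraries correlated at 0.018, -0.12 and -0.30 in their deviations from the group means, so no pairing was taken from the numbers, although *Ahcy* reads set both replicate 2 libraries apart from the other 4. The cause of these changes was not tested. With 3 libraries a group, the interval of *Tet2* still held log2 fold changes from -0.70 to 1.21.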

Other observations

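*Ahcy*, which removes the product that inhibits methyltransferases, was at 114.1, 20.2 and 157.6 CPM in dox-treated replicates 1, 2 and 3 and at 150.7, 26.7 and 152.4 CPM in untreated replicates 1, 2 and 3, and was thus low in replicate 2 of both groups. *Gm4737*, a near copy of it, was at 204.0, 291.1 and 276.8 CPM with dox and at 265.6, 469.5 and 264.2 CPM without, with its highest value of each group in replicate 2. The share of *Ahcy* in the sum of both was 6.48% and 5.38% in these replicates and between 35.9% and 36.6% in the other 4 libraries. Of the stretches of 50 bases in the *Ahcy* transcript 73.9% occur unchanged in *Gm4737*, so the division of reads between the 2 genes is uncertain, and the summed level was from 311.3 to 434.4 CPM with dox and from 416.3 to 496.2 CPM without.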
